A study of Mus musculus with 6 samples.

Results

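The 10 genes described here encode membrane transporters that carry organic anions, bile constituents and drugs into or out of hepatocytes: 6 exporters of the ATP-binding cassette family (Abcb1a, Abcb4, Abcc2, Abcc3, Abcc6 and Abcg2) and 4 importers of the organic anion transporting polypeptide family (Slco1a1, Slco1a4, Slco1b2 and Slco2b1). They were chosen by name, and all 10 had a row in the deposited count table of 25184 genes and were among the 15105 genes abundant enough to be tested. mRNA was sequenced from primary hepatocytes of chow-fed mice that had been cultured overnight on collagen, with 3 libraries of each genotype. In both genotypes the alleles of Sucnr1, which encodes a receptor for succinate, were floxed: Sucnr1 fl/fl mice had no Cre, whereas Hep-Sucnr1 KO mice also carried an Alb-Cre transgene, which is driven by the albumin promoter and deletes the gene in hepatocytes. No group had Cre without floxed alleles, so an effect of Cre and one of the deletion cannot be told apart. The age of these mice is not given in the sources used here. RNA was extracted on 2 days: Sucnr1 fl/fl replicate 1 and Hep-Sucnr1 KO replicate 3 on day 1, and Sucnr1 fl/fl replicates 2 and 3 and Hep-Sucnr1 KO replicates 4 and 5 on day 2. The question asked of each gene was whether its mRNA differed between the genotypes by more than the spread between libraries.

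Hepatocytes are polarized cells. On the sinusoidal side, which faces the blood, organic anion transporters take up bilirubin, bile salts, steroid conjugates and many drugs without using ATP. Inside the cell these compounds are often joined to glucuronate, sulphate or glutathione, and ATP-binding cassette pumps then move them across the canalicular membrane into bile or back across the sinusoidal membrane into blood. Abcb1a (P-glycoprotein) expels hydrophobic drugs, Abcb4 delivers phosphatidylcholine to bile, Abcc2 exports bilirubin glucuronides and glutathione conjugates, and Abcg2 exports sulphated compounds and urate, all 4 at the canalicular membrane. Abcc3 sends glucuronides to the blood, and Abcc6 mediates the release of ATP into the circulation.

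The libraries held between 30504248 and 38770694 counts on genes. As the check of the deletion, Sucnr1 stood at 6.71, 3.55 and 3.40 CPM (counts scaled to a common library size, with TMM factors for composition) in the fl/fl replicates 1, 2 and 3, and at 2.66, 0.827 and 0.152 CPM in the KO replicates 3, 4 and 5. It was thus lower in each KO library than in each control, and highest among the KO libraries in the one from day 1. Its log2 fold change was −2.23 (SE 0.54), but in the edgeR model used below its adjusted p was 0.998 (unadjusted 0.00444), so the deleted gene itself did not pass the threshold there. The 8 hepatocyte markers summed to between 60206 and 94047 CPM per library. Macrophage (Kupffer cell) markers ranged from 5.92 CPM in KO replicate 3 to 104 CPM in fl/fl replicate 3, summed over 8 genes, none of which was at 0 in any library. Summed endothelial (7 genes) and stellate cell (7 genes) markers reached 50.9 and 32.9 CPM in fl/fl replicate 1, against 21.0 to 34.4 and 7.68 to 13.6 CPM in the other 5 libraries. None of the endothelial markers was at 0, and of the stellate cell markers Des was at 0 in 3 libraries. Lrat, Des, Col1a1 and Col1a2 stayed below 1 CPM in every library, so Reln, Dcn and Ecm1 made up nearly all of the stellate cell sum. Of the 7 cholangiocyte markers, Sox9 and Spp1 made up nearly all of the 350 to 651 CPM, and Krt7, Krt19, Cftr and Cldn7 stayed below 1 CPM in every library. The 4 Y-linked genes examined summed to between 96.0 and 115 CPM in every library and Xist was at most 0.0330 CPM, so all 6 libraries had the pattern of male cells. This bears on the Slco1a genes, since Slco1a1 is known as male-biased and Slco1a4 as female-biased in mouse liver. In bulk RNA, fewer cells of a type and less RNA per cell cannot be told apart.

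Levels of different genes were compared as CPM per kilobase of merged exon, averaged over the 6 libraries. Slco1b2, the main hepatic importer of bilirubin and many drugs, had the highest level, at 53.1 ± 22.6 CPM per kb (SD, n = 6). Slco1a1 followed at 40.3 ± 5.88 and Abcc2 at 35.9 ± 9.99 CPM per kb. These 3 could not be ordered beyond their spread, as their ranges overlapped: Slco1b2 exceeded Slco1a1 in 4 of 6 libraries, and Slco1a1 exceeded Abcc2 in 5 of 6. Abcc3 came next with 25.5 ± 4.20 CPM per kb, below Abcc2 in 5 of 6 libraries. Abcb4 (15.1 ± 2.00), Abcc6 (12.2 ± 1.35) and Slco2b1 (10.6 ± 1.40 CPM per kb) formed a middle group that held this order in each of the 6 libraries, although the ranges of neighbours overlapped. The lower end was made up of Abcg2 (6.05 ± 1.32), Abcb1a (2.29 ± 0.890) and Slco1a4 (1.06 ± 0.579 CPM per kb). Neighbours in this order had ranges that did not overlap at 3 steps: Abcc3 to Abcb4, Slco2b1 to Abcg2 and Abcg2 to Abcb1a. The steps from Abcc3 to Abcb4 and from Slco2b1 to Abcg2 came from the division by length. Before it, Abcc3 and Abcb4 averaged 146 and 141 CPM with overlapping ranges, over 5698 and 9383 bases of merged exon. Slco2b1 (5958 bases) reached from 55.3 to 74.5 CPM and Abcg2 (8153 bases) from 41.9 to 70.5 CPM, which also overlap. Only Abcg2 and Abcb1a (at most 21.6 CPM) had separate ranges without the division. The order thus depends on the exon lengths of the annotation. The highest gene exceeded the lowest by 50.3 times.

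**Figure D1:**
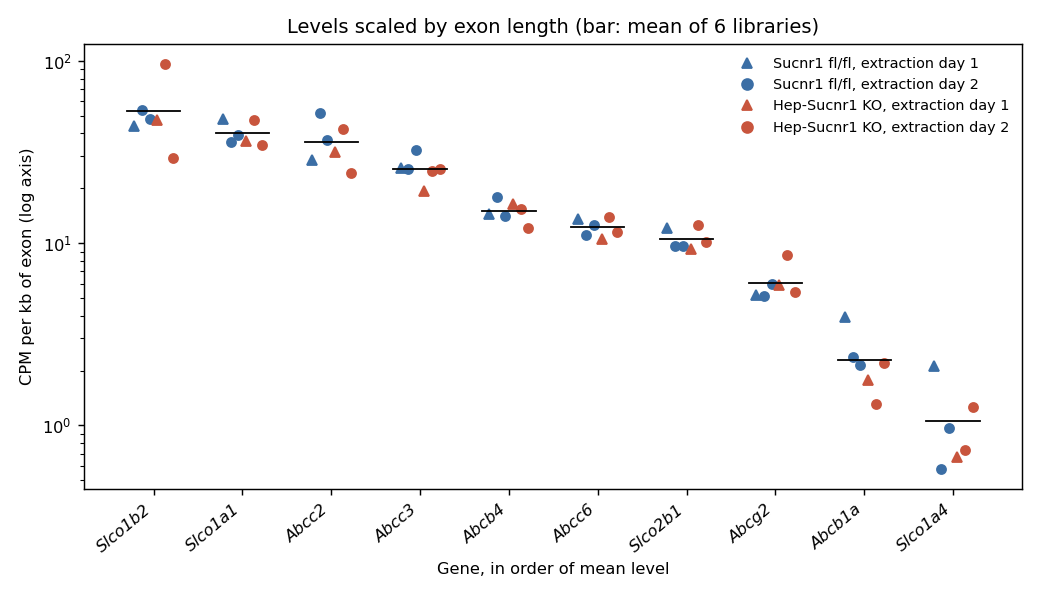
Level of each transporter gene in each library, as CPM per kilobase of exon on a log axis, in order of the mean over 6 libraries (black bar). Triangles mark extraction day 1, circles day 2, blue Sucnr1 fl/fl and red Hep-Sucnr1 KO. The means run from 53.1 for Slco1b2 to 1.06 for Slco1a4, and both genotypes are mixed within most genes.

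Both ends of this order belong to 1 gene cluster. On chromosome 6 of GRCm38, Slco1b2 (plus strand, chr6:141629518-141686646), Slco1a4 (minus strand, chr6:141805440-141856199) and Slco1a1 (minus strand, chr6:141907282-141946962) follow each other in this order, with 119 kb between the first pair and 51.1 kb between the second. Slco1a1 stood 38.1 times above Slco1a4 per kilobase. RefSeq promoter entries (GRCm38.p6) matched 8 of the 10 genes. The 250 bases before the RefSeq start of these 3 genes are shown because they share a locus but differ so widely in level. They occupy chr6:141629268-141629517 (plus strand) for Slco1b2, chr6:141856221-141856470 (minus strand) for Slco1a4 and chr6:141946963-141947212 (minus strand) for Slco1a1, and are written 5′ to 3′ on the strand of the gene. Capitals mark the hexamers GTTAAT (part of the site of HNF1 factors) and AGGTCA (part of the sites of many nuclear receptors), searched on both strands.
Slco1b2: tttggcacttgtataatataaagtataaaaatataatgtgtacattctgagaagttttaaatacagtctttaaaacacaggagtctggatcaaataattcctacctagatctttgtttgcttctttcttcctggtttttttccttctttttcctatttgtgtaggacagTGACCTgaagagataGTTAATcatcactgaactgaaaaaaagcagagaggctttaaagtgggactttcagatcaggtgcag
Slco1a4: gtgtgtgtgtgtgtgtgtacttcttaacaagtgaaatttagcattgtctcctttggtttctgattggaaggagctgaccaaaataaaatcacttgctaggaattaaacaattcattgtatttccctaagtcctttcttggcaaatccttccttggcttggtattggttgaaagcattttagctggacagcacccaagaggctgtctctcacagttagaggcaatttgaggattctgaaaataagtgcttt
Slco1a1: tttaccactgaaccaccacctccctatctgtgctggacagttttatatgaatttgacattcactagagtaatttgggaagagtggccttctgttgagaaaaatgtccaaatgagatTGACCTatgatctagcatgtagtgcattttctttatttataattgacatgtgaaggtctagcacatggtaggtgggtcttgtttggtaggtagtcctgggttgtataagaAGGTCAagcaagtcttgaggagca
The window of Slco1b2 held 1 GTTAAT, whose first base lay 66 bases before the start, and 1 AGGTCA on the opposite strand at 81 bases. That of Slco1a1 held 2 copies of AGGTCA, at 134 (opposite strand) and 24 bases before the start, and that of Slco1a4 held neither hexamer. Among all 32851 RefSeq windows of the same length, 6.43% contained GTTAAT and 14.0% AGGTCA. TGACNNNGC, the core of the antioxidant response element, was found in 0 of these 3 windows, in that of Abcc2 and in 10.2% of all windows. These matches describe letters and not binding.

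Between the genotypes, 0 of the 10 transporter genes passed a false discovery rate (FDR) of 0.05 in edgeR's quasi-likelihood test with extraction day in the model, where 0% of the 15105 genes tested did. DESeq2's Wald test called 0 of the 10 as well and 0.0463% of all genes. Before adjustment, p was below 0.05 for 1 of the 10 (Abcb1a, lower in KO) with either tool; the background was 3.73% of all genes with edgeR, 1.81% counting only genes lower in KO, and 2.88% with DESeq2. The genotypes did not overlap in 1 of the 10 (Abcc3, lower in KO), against 10.6% of all genes in either direction and 4.04% in that direction. The log2 fold change, always given as KO against fl/fl, was below 0 for 7 and above 0 for 3 genes (below 0 for 49.5% of all genes), and its median was −0.07 beside 0.00 over all genes. The median became 0.11 without fl/fl replicate 1, 0.10 without KO replicate 3 and −0.23 without KO replicate 4, so its sign depended on single libraries. With 10 genes, 1 gene is the smallest count above 0, so these shares are no result about the transporters as a group.

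**Figure D2:**
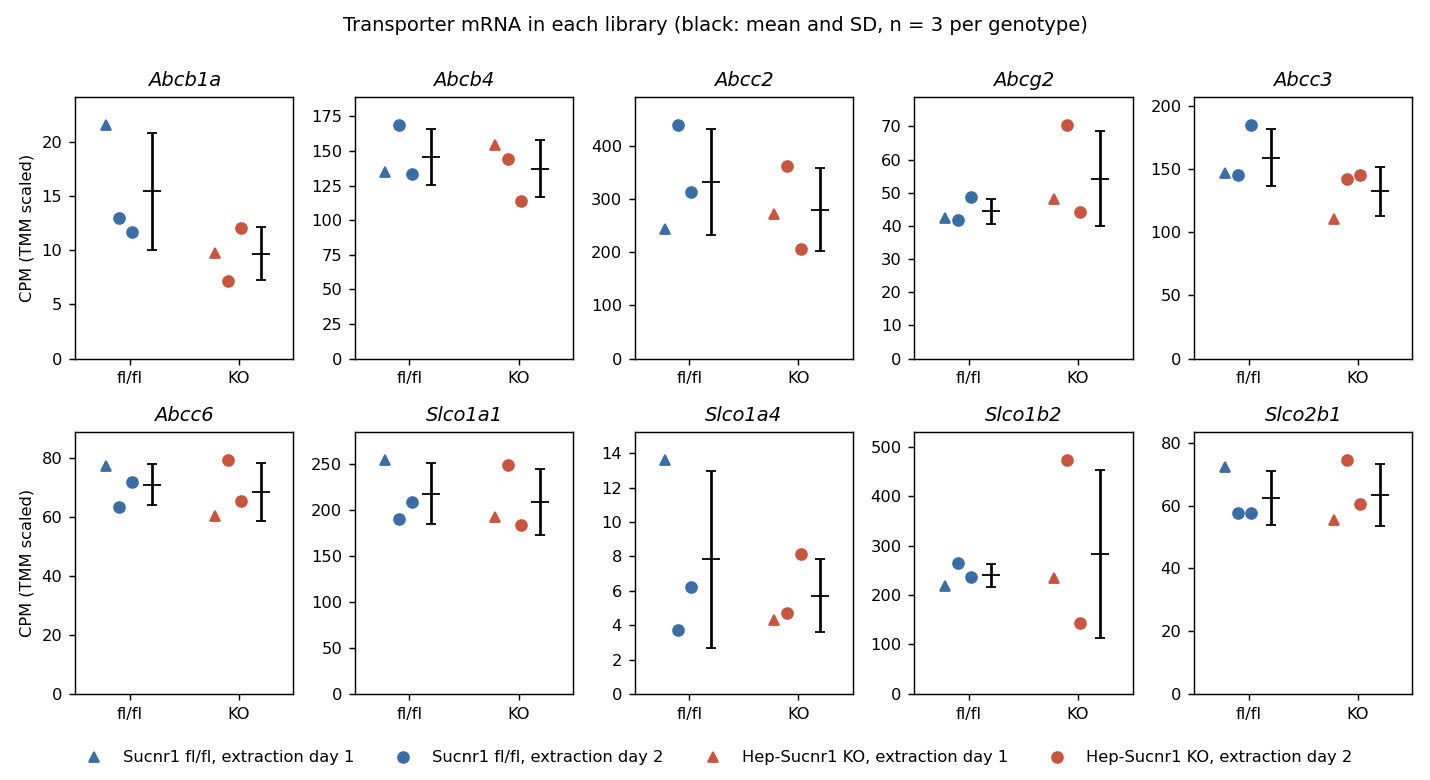
TMM-scaled CPM of the 10 genes in each library (linear axes from 0), with exporters from Abcb1a to Abcc6 and then importers; blue marks Sucnr1 fl/fl, red Hep-Sucnr1 KO, triangles day 1 and circles day 2, and black the mean and SD of 3 libraries. Only Abcc3 has no overlap between the genotypes, and the libraries of Slco1b2 in KO spread from 144 to 473 CPM.

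Among the canalicular exporters, Abcb1a had the largest difference between the genotypes. Its mRNA was at 21.6, 13.0 and 11.7 CPM in fl/fl replicates 1, 2 and 3, and at 9.75, 7.18 and 12.1 CPM in KO replicates 3, 4 and 5. The mean was 15.4 ± 5.35 CPM (SD, n = 3) in fl/fl and 9.69 ± 2.48 CPM (SD, n = 3) in KO, and the groups overlapped because KO replicate 5 exceeded fl/fl replicate 3. The fitted log2 fold change was −0.62 (SE 0.25, 95% interval −1.21 to −0.03), and edgeR's quasi-likelihood test gave an adjusted p of 0.998 (unadjusted 0.0421). A two-sided exact permutation test of the means gave 0.20, where 0.1 is the smallest p that 3 against 3 allows. The estimate was below 0 in all 14 alternative settings, between −0.94 and −0.36, and the unadjusted p was below 0.05 in 8 of them. It was not without fl/fl replicate 1, fl/fl replicate 2, KO replicate 3 or KO replicate 4. Nor was it with the day 2 libraries alone or with the index series of the libraries as a further term. The highest library, fl/fl replicate 1, also had the highest sums of endothelial and stellate cell markers, and their part in the Abcb1a difference was not tested. Abcb1b, a close copy of Abcb1a that lies 49.6 kb further along chromosome 5, was at 4.94, 4.96 and 2.84 CPM in fl/fl and 4.62, 5.91 and 3.58 CPM in KO (log2 fold change 0.15, SE 0.29). Per kilobase Abcb1a stood 4.09 times above Abcb1b. How read pairs that match both were counted is not stated, so the division between these 2 genes is uncertain.

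Abcb4 lies in the same cluster, 27.4 kb beyond Abcb1b, and its level was 6.57 times that of Abcb1a per kilobase. It was at 135, 169 and 133 CPM in fl/fl and 154, 144 and 114 CPM in KO, so the groups interleaved. The log2 fold change was −0.09 (SE 0.16), and the interval from −0.48 to 0.30 leaves room for a change of either sign. Abcc2 was at 243, 440 and 314 CPM in fl/fl replicates 1 to 3 and 271, 363 and 207 CPM in KO replicates 3 to 5. The means of 333 ± 99.9 CPM in fl/fl and 280 ± 78.2 CPM in KO (SD, n = 3) differed by less than 1 SD of either genotype, with a log2 fold change of −0.22 (SE 0.26, interval −0.83 to 0.39). Both genes were highest in fl/fl replicate 2 and lowest in KO replicate 5. Abcg2 was the one canalicular exporter with a positive estimate, at 42.3, 41.9 and 48.8 CPM in fl/fl against 48.0, 70.5 and 44.2 CPM in KO. A single library, KO replicate 4, lay well above the other 5, which spanned 41.9 to 48.8 CPM. The log2 fold change of Abcg2 was 0.29 (SE 0.18, unadjusted p = 0.164 in edgeR) and ranged from 0.06 to 0.44 over the alternatives.

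Of the exporters that face the blood, Abcc3 was the only gene of the 10 with separate groups. It was at 147, 145 and 185 CPM in fl/fl and 110, 142 and 145 CPM in KO, and the separation was narrow: the lowest control and the highest KO library both rounded to 145 CPM. Hepatocytes of KO mice held 83.2% of the control mean (132 ± 19.7 against 159 ± 22.7 CPM; SD, n = 3). The log2 fold change was −0.27 (SE 0.13, interval −0.59 to 0.05; unadjusted p = 0.0826, FDR 0.998 in edgeR), and the exact permutation p was 0.10, the smallest possible. Its estimate kept its sign in all 14 alternatives, from −0.42 to −0.19. Abcc6, which is mutated in the calcification disorder pseudoxanthoma elasticum, was among the steadiest of the genes. Its libraries ran from 60.5 to 79.4 CPM, at 77.4, 63.6 and 72.1 CPM in fl/fl and 60.5, 79.4 and 65.5 CPM in KO, with a log2 fold change of −0.05 (SE 0.15, interval −0.40 to 0.29).

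The importers gave no consistent direction. Slco1a1 was at 254, 190 and 208 CPM in fl/fl and 192, 249 and 183 CPM in KO, with a log2 fold change of −0.05 (SE 0.18, interval −0.47 to 0.36). Slco2b1, a carrier of steroid sulphates and statins, was at 72.4, 57.6 and 57.5 CPM in fl/fl and 55.3, 74.5 and 60.5 CPM in KO, with a log2 fold change of 0.02 (SE 0.16, interval −0.36 to 0.41). In both genes fl/fl replicate 1 and KO replicate 4 were the highest libraries, so the spread lay within the genotypes. The intervals of Abcc6, Slco1a1 and Slco2b1 exclude fold changes above 1.33 times in the direction of KO, and they do not show that the genotypes are alike.

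Slco1b2 varied widely within the KO genotype. Its 3 control libraries were close, at 218, 265 and 236 CPM, while KO replicates 3, 4 and 5 stood at 234, 473 and 144 CPM. Its 2 extreme libraries were thus both KO libraries of extraction day 2, 3.29 times apart, and the SD was 170 CPM in KO against 23.7 CPM in fl/fl. The log2 fold change of 0.23 (SE 0.39, interval −0.69 to 1.16) turned to −0.40 without KO replicate 4 and rose to 0.58 without KO replicate 5. Slco1a4, an importer of bile salts and cardiac glycosides, was the scarcest and the most variable of the 10. The SD of its log2 CPM over the libraries exceeded that of 95.1% of the genes tested with a mean of at least 1 CPM. It was at 13.6, 3.70 and 6.20 CPM in fl/fl and 4.31, 4.70 and 8.14 CPM in KO, resting on 123 to 524 counts per library. Only fl/fl replicate 1 stood apart. The log2 fold change was −0.29 (SE 0.48, interval −1.42 to 0.84), and 0.38 without that library. Endothelial cells also express Slco1a4, and the endothelial marker sum was highest in the same library (50.9 CPM); its part in the Slco1a4 level was not tested. Reads shared between Slco1a1, Slco1a4 and related Slco1a genes may have been divided, dropped or counted for more than 1 gene, so their counts are uncertain to that extent.

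**Figure D3:**
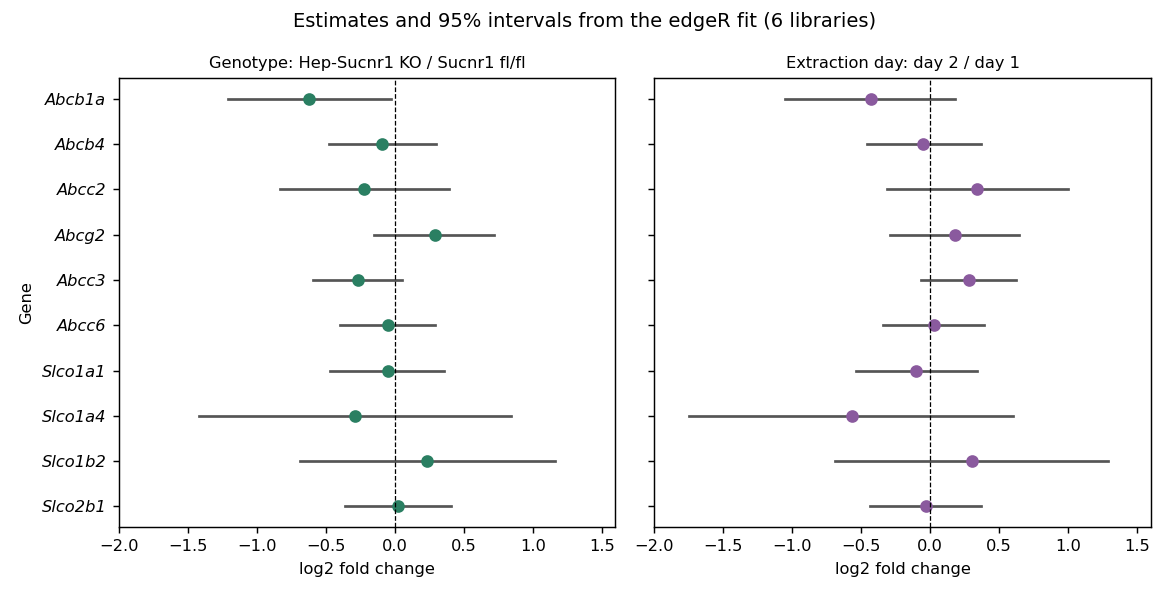
Log2 fold changes (points) and 95% intervals (lines) of the 10 genes from the edgeR model, on the left for Hep-Sucnr1 KO against Sucnr1 fl/fl and on the right for extraction day 2 against day 1. Among the genotype intervals that of Abcb1a alone (−1.21 to −0.03) does not include 0; each day interval does.

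Extraction day was compared in the same model, with 2 libraries from day 1 and 4 from day 2. With edgeR, 0 of the 10 genes passed the FDR threshold (0% of all genes) and 0 had an unadjusted p below 0.05 (7.49% of all genes); DESeq2 called 0 of the 10 by either measure and 1.49% of all genes after adjustment. The estimates ran from −0.57 (SE 0.49) for Slco1a4 and −0.43 (SE 0.26) for Abcb1a, both highest in the control library of day 1, to 0.34 (SE 0.28) for Abcc2. With 1 library left out, the day estimate of Abcb1a ran from −0.84 to −0.01 and that of Abcc2 from 0.07 to 0.60. The genotype difference was also set against day. Slco1a4 in KO was 0.316 times its fl/fl level among the day 1 libraries (1 per genotype) and 1.30 times among those of day 2 (2 per genotype). The interaction had a log2 size of 2.04 (SE 0.63), and edgeR gave an adjusted p of 1.000 (unadjusted 0.0186). It was the 1 gene of 10 with an unadjusted interaction p below 0.05, against 3.69% of all genes, and no gene passed the FDR threshold. For Abcb1a the KO to fl/fl ratio was 0.452 on day 1 and 0.781 on day 2, and for Abcc3 it was 0.746 and 0.871, so both were below 1 on either day.

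Some libraries were the highest or the lowest for several of the 10 genes. How often each library is extreme over all genes is not given here. KO replicate 4 was the highest of the 6 libraries for 4 of the 10 genes (Abcc6, Abcg2, Slco1b2 and Slco2b1) and the lowest for Abcb1a. KO replicate 5 was the lowest for 4 (Abcb4, Abcc2, Slco1a1 and Slco1b2) and KO replicate 3 for 3 (Abcc3, Abcc6 and Slco2b1). KO replicate 3 was also the library with the lowest Kupffer cell marker sum (5.92 CPM against 28.5 to 104 CPM elsewhere), whose part in these levels was not tested. Control libraries were extreme too: fl/fl replicate 1 was the highest for 3 genes, and fl/fl replicate 2 the highest for 2 and the lowest for 2. The highest values of Pearson's r of log2 CPM over the 6 libraries were those of the 3 pairs among Abcc6, Slco1a1 and Slco2b1, between 0.88 and 0.91. At the other extreme, Abcb1a and Abcg2 ran opposite to each other (r = −0.80). Abcb4 and Abcc2 had r = 0.81, Abcg2 and Slco1b2 r = 0.80, and Abcb1a and Slco1a4 r = 0.73. These values are descriptions, since the 6 points of every pair share the same libraries, cultures and scaling.

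**Figure D4:**
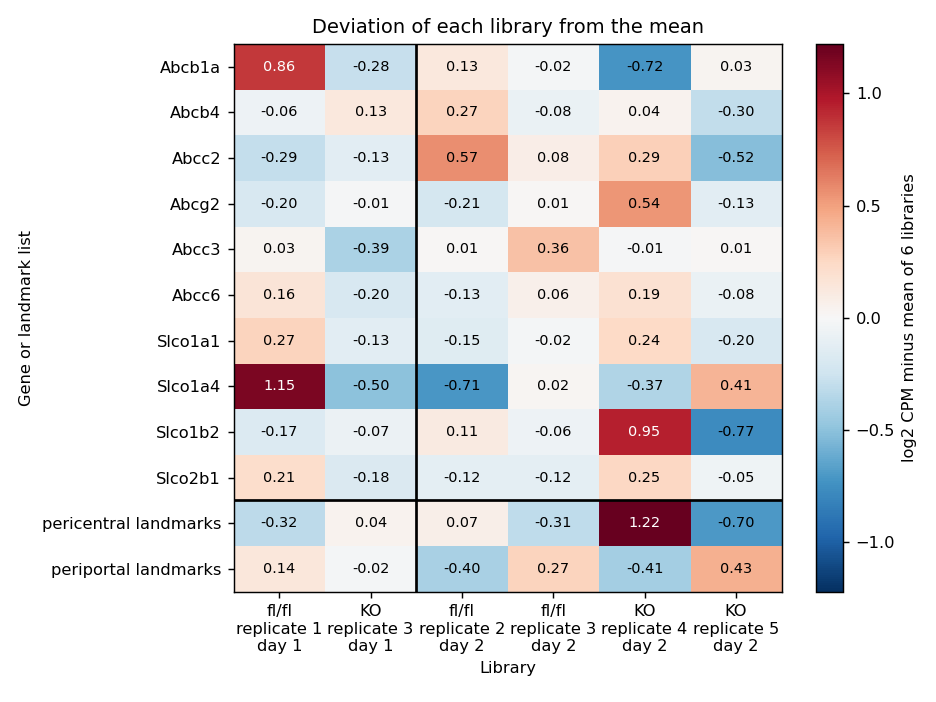
Deviation of each library from the mean of the 6 libraries in log2 CPM (red above, blue below), for the 10 genes and, under the line, the mean deviation of 9 pericentral and 8 periportal landmark genes; day 1 libraries stand left of the vertical line. KO replicate 4 reaches 0.95 for Slco1b2 and 1.22 for the pericentral landmarks, while KO replicate 5 falls to −0.77 and −0.70.

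Genes with the most similar profile were sought for the 3 genes with the largest spread, among 11715 other genes tested with a mean of at least 1 CPM. For Slco1b2 these were Cyp2c54 (r = 0.999), a cytochrome P450 whose counts may include reads of other Cyp2c genes, and Sult2a8 (r = 0.995), a sulphotransferase. Cyp2c54 was at 48.6, 64.8 and 54.4 CPM in fl/fl and 57.2, 146 and 28.3 CPM in KO, again with its highest and lowest levels in KO replicates 4 and 5. Abcb1a was most like Gm14288 (r = 0.995) and Stbd1 (r = 0.991), whose protein binds glycogen; Stbd1 was at 117, 76.6 and 70.7 CPM in fl/fl and 64.9, 53.6 and 72.0 CPM in KO. For Slco1a4 the first was the microRNA gene Mir1938 (r = 0.995), at 2.94, 0.662 and 1.06 CPM in fl/fl and 0.728, 0.768 and 1.52 CPM in KO, highest in fl/fl replicate 1 like Slco1a4. These values are descriptions over 6 libraries, with no p. Picked as the highest among 11715 genes on so few points, they can be high by selection alone.

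The 10 genes were also set beside landmark genes of liver zonation, since libraries can differ in their share of cells from around the central vein or the portal tract. The pericentral score (mean deviation of log2 CPM over 9 genes such as Glul, Cyp2e1 and Oat) was −0.32, 0.07 and −0.31 in fl/fl and 0.04, 1.22 and −0.70 in KO. Slco1b2 followed it with Pearson's r = 0.97 (n = 6, two-sided exact permutation p = 0.00833; 0.167 after Benjamini-Hochberg adjustment over the 20 relations of the 10 genes with 2 scores) and Spearman's rho = 0.94 (exact permutation p = 0.0167, adjusted 0.292). None of the 20 relations passed 0.05 after adjustment. Without KO replicates 4 and 5, the 2 libraries farthest from the median score, r was 0.71 over 4 libraries, so the relation rested mainly on those 2. It was computed after the values had been seen, and neither extraction day holds enough libraries for a value of its own. The periportal score ran the other way for Slco1b2 (r = −0.83, exact permutation p = 0.0167, adjusted 0.167). Its rho was −0.83 (exact permutation p = 0.0583, adjusted 0.292), and r was −0.76 without KO replicate 4 and fl/fl replicate 2. Such values were not particular to Slco1b2. With the periportal score, r was −0.85 for Abcc2 and −0.83 for Abcb4. With the pericentral score, r was 0.86 for Abcg2 (rho = 0.31) and 0.62 for Abcc2 (rho = 0.89).

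Transporters outside the 10 were counted in the same fit. Of 19 further genes for bile salts, sterols, organic cations and nucleosides, 10 were higher and 9 lower in KO, with a median log2 fold change of 0.02; 0 passed the FDR threshold in edgeR and 2 had an unadjusted p below 0.05, both lower in KO (1.81% of all genes; 3.73% in either direction). The main pair for bile salts varied little between the libraries. Abcb11, the bile salt export pump, was at 437, 388 and 444 CPM in fl/fl and 425, 454 and 407 CPM in KO, a log2 fold change of 0.02 (SE 0.13). Slc10a1, the sodium-dependent bile salt importer, was at 298, 233 and 253 CPM in fl/fl and 239, 247 and 249 CPM in KO, a log2 fold change of −0.09 (SE 0.13). Among those of at least 1 CPM, the highest and lowest estimates were those of Slc51b (0.64, SE 0.48), a subunit of a basolateral steroid exporter, and Slc29a2 (−0.53, SE 0.35), a nucleoside carrier, both under 2 CPM on average. The 2 genes with an unadjusted p below 0.05 were Abcg5 (−0.31, SE 0.11) and Abcg8 (−0.36, SE 0.15), which together form the canalicular sterol pump. Both had groups that did not overlap, lower in KO (4.04% of all genes); they are named after their values were seen, and each had an FDR of 0.998 in edgeR.

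Of the 28 other Abc genes tested among 31 listed, 10 were higher and 18 lower (49.5% of all genes were lower; median −0.05), with 0 past the FDR threshold in edgeR and 2 with an unadjusted p below 0.05, against 3.73% of all genes: Abca6 (−0.33, SE 0.13) and Abca8a (−0.43, SE 0.15), lipid transporters of the same subfamily, named after their values were seen. Among those of at least 1 CPM, the lowest estimate was −0.48 (SE 0.34) for Abcc4, a basolateral exporter. Only 2 other Slco genes were abundant enough to be tested, of 8 in the table. Slco2a1, the prostaglandin transporter, was at 112, 119 and 115 CPM in fl/fl and 78.9, 61.5 and 94.0 CPM in KO. Every KO library was below every control, the log2 fold change was −0.56 (SE 0.17, interval −0.96 to −0.16), and the unadjusted p of 0.0131 corresponded to an FDR of 0.998 in edgeR. Of all genes, 4.04% likewise had every KO library below every control. An unadjusted p below 0.05 in edgeR with a lower level in KO was found for 1.81% of all genes. Slco3a1 had a log2 fold change of −0.28 (SE 0.40).

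The 19 regulators and scaffold proteins of these transporters, such as the nuclear receptors that sense drugs and bile acids, comprised 6 higher and 13 lower genes (median −0.05). Of all genes, 49.5% were lower. The unadjusted p in edgeR was below 0.05 for 0 of the 19, against 3.73% of all genes, and a list this short cannot tell 0 from that share. Hnf4a, a master regulator of hepatocyte genes, had the highest estimate (0.19, SE 0.28) and Nr0b2, the repressor of bile acid synthesis, the lowest (−0.30, SE 0.23). Of 23 genes for conjugation and drug oxidation, which act before the exporters, 16 were higher and 7 lower (median 0.10). Again 0 genes were below an unadjusted p of 0.05 in edgeR, against the same 3.73% and with the same limit. The genotypes did not overlap in 1 of the 23, lower in KO, against 4.04% of all genes in that direction. Cyp1a2 had the highest estimate, 0.50 (SE 0.48), with 462 CPM in KO replicate 4 and 101 CPM in KO replicate 5 against 170 to 244 CPM in the other 4 libraries, the same 2 extremes as Slco1b2. Cyp2b10, a target of the drug-sensing receptor CAR, had the lowest (−0.78, SE 0.70).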

How the data were processed

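Counts were available for 6 libraries of stranded, poly(A)-selected RNA. Per the study's methods and the submitters' processing notes, the authors trimmed read pairs with Trim Galore 0.6.7, aligned them to GRCm38 with STAR 2.7.10a, counted them on genes by strand with featureCounts and deposited the raw counts without normalization; the treatment of multi-mapping pairs is not given in the sources used here. Gene symbols (25130 of 25184), coordinates and exon lengths were taken from GENCODE M21 and start sites from RefSeq. Genes with a mean DESeq2-normalized count above 5 were kept (15105). Genotype and extraction day were fitted with edgeR 4.0.16 (R 4.3.3; TMM factors, quasi-likelihood test, Benjamini-Hochberg adjustment over all genes tested, threshold 0.05), and the common biological coefficient of variation was 0.206. DESeq2 1.42.0 was the alternative tool. Other alternatives concerned scaling, filter, covariates and libraries left out. The log2 CPM used for correlations had a prior count of 2. Each library was taken as 1 mouse, as the labels imply; p-values measure the spread between these libraries.

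Genes named were the 10 transporters, Sucnr1, Abcb1b, Abcb11 and Slc10a1, the gene with the highest and the lowest estimate of at least 1 CPM in each of 5 further lists, any list member past the FDR threshold, and the 2 most similar genes of the 3 transporters with the largest spread; others are marked, and 2 genes that this rule names are not reported here. The members, lists and most tests were chosen with earlier results of these data known. The genotype fit was tested on simulated counts whose fold changes were larger than any genotype estimate of the 10 genes, so that test does not cover changes of their size. The day and interaction terms were not tested in this way.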

Additional observations from a re-analysis of the deposited data

How the results depend on the processing

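The count of 0 genes past the FDR threshold held under all alternatives run, for genotype and for extraction day. The number of the 10 genes with an unadjusted p below 0.05 between the genotypes was 2 with library size alone, 0 with the index series of the libraries as a further term, with the day 2 libraries alone, or without fl/fl replicate 1, KO replicate 3 or KO replicate 4, and 3 without KO replicate 5; for extraction day, where it was 0, leaving out a library gave 0 to 3. The share of all genes under each of these settings is not given here, so the counts are no result about the 10 genes. The median log2 fold change of the 10 genes was 0.10 with the day 2 libraries alone and ranged from −0.23 to 0.11 with 1 library left out. Signs turned as follows: Slco2b1 to −0.01 with library size alone, Abcb4 to 0.04 with the index series, and Abcc6 to 0.09, Slco1a1 to 0.11 and Slco1a4 to 0.37 with day 2 alone; the day estimate of Slco2b1 turned to 0.02 with the index series. With 1 library left out, the genotype estimates ran from −0.24 to 0.06 (Abcb4), −0.42 to 0.03 (Abcc2), −0.18 to 0.09 (Abcc6), −0.24 to 0.12 (Slco1a1), −0.74 to 0.38 (Slco1a4), −0.40 to 0.58 (Slco1b2) and −0.12 to 0.23 (Slco2b1), and the day estimates from −0.25 to 0.13 (Abcb4), −0.23 to 0.26 (Abcc6), −0.39 to 0.17 (Slco1a1), −1.50 to 0.57 (Slco1a4), −0.19 to 0.54 (Slco1b2) and −0.37 to 0.29 (Slco2b1). The cause was not tested. Abcb1a, Abcc3 and Abcg2 kept their direction between the genotypes in all 14 alternatives. For Sucnr1, −2.23 with an adjusted p of 0.998 in edgeR, DESeq2 gave −2.31 with an adjusted p of 0.0328 (0.0328 to 1.00 over its alternatives). The index series, read from the library names, is partly confounded with genotype, since both libraries of 1 series are controls. No paired analysis was possible because the groups share fewer than 2 replicate numbers. Except for Slco1a4 and Abcb1a, the genes had at least 1393 counts in every library.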
